A study of Homo sapiens with 6 samples.

Results

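The creatine genes described here are the creatine carrier SLC6A8, the synthesis enzymes GATM and GAMT, the cytosolic creatine kinase CKB and the paired mitochondrial creatine kinase genes CKMT1A and CKMT1B. They are 6 of the 58676 genes of the deposited table, found by matching the table's Ensembl IDs to the symbols of GENCODE release 29. The set was built around SLC6A8, itself chosen by its RPKM values, which did not overlap between knockdown and control, and the other members were added by function. The contrast of knockdown with control therefore chose SLC6A8, and its difference is given as a description without a p-value.

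A human cell line with the label HCC was grown in DMEM with serum, and its total RNA was sequenced in 3 libraries labelled control and titled 238 and in 3 labelled knockdown and titled sponge. A sponge is a transcript that binds a microRNA and takes it away from its targets. The series title speaks of cells treated with miR-19a, while the sample labels say knockdown and sponge. The groups follow the sample labels, so whether miR-19a was lower in the knockdown libraries is not known from these data. The labels do not name the line, the sponge's promoter or vector, or what 238 stands for, and they do not say whether replicates were separate cultures, so p-values here reflect library-to-library spread that could be technical. Knockdown replicate 2 was left out, since its column is out of step with the gene IDs (rank correlation across genes of 0.017 to 0.019 with the other libraries, against 0.82 to 0.89 among those 5). That leaves 3 control and 2 knockdown libraries. Values are RPKM, which scale reads by exon length and by library depth. Recovered reads numbered 9181567, 1948940 and 19605312 for controls 1 to 3, and 9296308 and 15198231 for knockdown libraries 1 and 3. All 11 hepatocyte markers listed were expressed, with ALB spanning 652.4 to 950.9 RPKM among controls and 816.9 to 869.6 RPKM among knockdown libraries. Of these markers, APOB lay below all controls (log2 difference -0.88) and SERPINA1 (0.54) and TF (0.43) above them, none of them called. In bulk RNA, fewer cells of a kind and less RNA per cell cannot be told apart.

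Creatine is made from arginine and glycine and carries a high-energy phosphate. GATM transfers the amidino group of arginine to glycine, which gives guanidinoacetate and ornithine, and GAMT methylates guanidinoacetate to creatine with S-adenosylmethionine as methyl donor. SLC6A8 brings creatine into cells together with sodium and chloride. Creatine kinases move phosphate between ATP and creatine, the mitochondrial forms next to the sites of ATP export and the cytosolic forms where ATP is used. Liver is known as an organ that makes creatine and releases it to muscle and brain, and adult liver has little creatine kinase.

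Because the series title names miR-19a, its sequence, that of miR-19b, which has the same seed, and the member with a full seed match are shown first. RefSeq (GRCh38.p14) places mature miR-19a-3p at chr13:91350939-91350961 and mature miR-19b-3p from the gene MIR19B1 at chr13:91351245-91351267, both on the plus strand. Bases 2 to 8, the seed, are in capitals.

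hsa-miR-19a-3p: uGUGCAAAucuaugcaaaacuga

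hsa-miR-19b-3p: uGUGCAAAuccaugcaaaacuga

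The 2 microRNAs share the seed GUGCAAA, whose matches in a target are TTGCAC (6 bases), TTTGCAC (7 bases) and TTTGCACA (8 bases, ending in A). In the longest annotated 3' UTR of each member, SLC6A8 alone of the 6 held the 8-base match. It lies at bases 707 to 714 of a 3' UTR of 1379 bases, at chrX:153695921-153695928 on the plus strand of GRCh38, 665 bases before the end. The window of 30 bases around it is chrX:153695910-153695939, with the match in capitals.

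SLC6A8 match: gaggcttgtatTTTGCACAttttataaaaa

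GAMT held 1 match of 6 bases, at bases 514 to 519 of 865 (chr19:1398157-1398162, minus strand), and GATM (985 bases), CKB (205), CKMT1A (133) and CKMT1B (133) held no TTGCAC. Of 19146 coding genes with an annotated 3' UTR, 6.10% held TTTGCACA, 13.6% TTTGCAC and 28.5% TTGCAC, and among the 4254 of 1000 to under 2000 bases 4.94% held TTTGCACA. A match of these letters is a description and does not show that the microRNA binds there.

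Among the 802 tested genes with TTTGCACA, SLC6A8 had rank 4 from the top by log2 difference of knockdown over control. Among all 15408 genes tested it had rank 398. SLC6A8 was chosen on this same contrast, so high ranks follow from that choice and nothing is read from them. The other genes with this match did not share the direction of SLC6A8 as a group. Values separated upward, with both knockdown libraries above all 3 controls, in 8.35% of those 802 genes and in 14.8% of tested 3' UTR genes without the match, and below all controls for 19.0% and 15.9%. The median log2 difference was -0.10 with the match and 0.00 without it. Within 3' UTRs of 1000 to under 2000 bases, the medians were -0.03 for 142 genes with the match and -0.03 for the rest. In that length class 11.97% of genes with the match and 12.8% without it were separated upward. Neither comparison was matched for GC content, with which the differences moved across the whole table.

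SLC6A8 (ENSG00000130821, chromosome X from 153688099 to 153696593, plus strand) measured 33.0, 30.4 and 30.4 RPKM across controls 1 to 3. Knockdown libraries 1 and 3 had 58.0 and 61.0 RPKM. In the same order the read numbers were 1664, 326, 3272, 2962 and 5096. The controls lay within 1 narrow band and both knockdown libraries stood well above it, with no overlap. Mean control RPKM was 31.2 ± 1.49 (SD, n = 3) and mean knockdown RPKM 59.5 ± 2.15 (SD, n = 2), a ratio of 1.90 and a log2 difference of 0.92 (SE 0.14) on the log2(RPKM + 0.5) scale. The exact 95% Poisson interval of the shallowest library, control replicate 2, ran from 27.2 to 33.9 RPKM and that of knockdown replicate 1 from 55.9 to 60.1 RPKM, which covers counting error only. Against the other genes of each library, SLC6A8 lay above 90.1% to 91.2% of tested genes in the controls and above 95.2% in both knockdown libraries. With any 1 library left out, its log2 difference was 0.88 to 0.96. SLC6A8 was chosen on these same values, so nothing is read from that range.

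**Figure D1:**
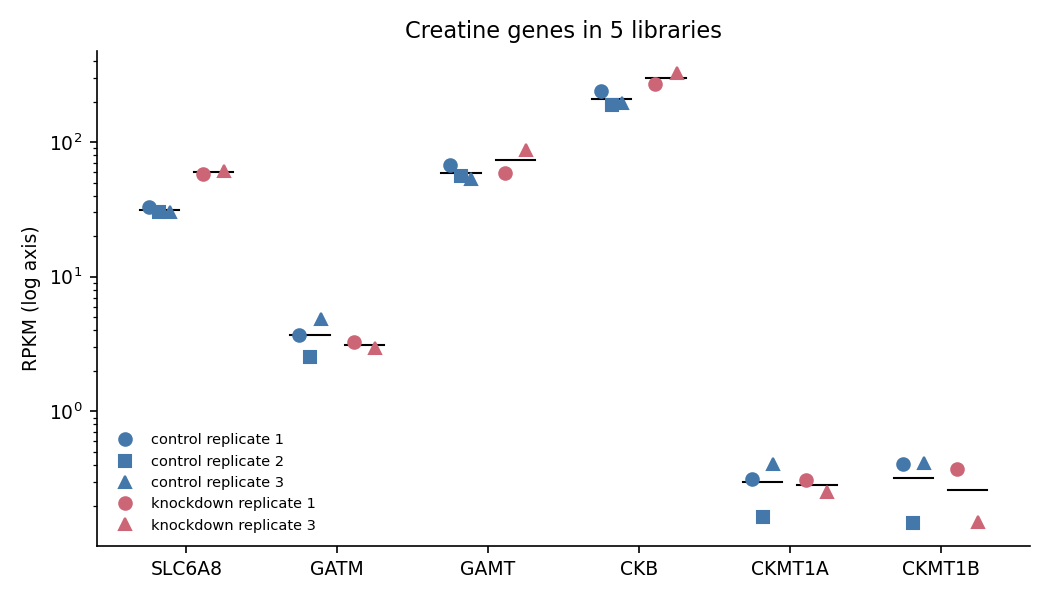
RPKM on a log axis for the 6 creatine genes, with 1 point per library (blue for control, red for knockdown, shapes for the replicate number) and bars at the group means. The 2 knockdown points of SLC6A8, at 58.0 and 61.0 RPKM, and of CKB, at 269.1 and 324.4 RPKM, lie above all controls, while the points of the other 4 genes overlap.

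Some reads counted for SLC6A8 could belong to other loci. PNCK, a calmodulin-dependent kinase gene on the opposite strand, overlaps the first 912 bases of SLC6A8, and their annotated exons share 22 bases. PNCK was at 2.70, 2.32 and 2.31 RPKM in control and at 4.67 and 5.67 RPKM in knockdown. Its reads amounted to 7.06% to 7.57% of the SLC6A8 reads in control and to 7.46% and 8.61% in knockdown, so the levels of the 2 genes stayed close to 1 ratio. It is not stated if counting was stranded, so reads from the shared stretch cannot be told apart. PNCK had 23 to 439 reads a library where SLC6A8 had 326 to 5096. The pseudogene SLC6A10P on chromosome 16 aligns over 47.8% of the longest SLC6A8 transcript at 93.9% to 97.9% identity, and it was at 0.146, 1.49 and 0.0228 RPKM in control and at 0.240 and 0.294 RPKM in knockdown, 2 to 20 reads in any library. The other flanking genes that passed the expression filter overlapped between the groups, DUSP9, a MAP kinase phosphatase, with controls from 146.6 to 206.7 RPKM and knockdown libraries from 174.8 to 196.8 RPKM, and BCAP31, an endoplasmic reticulum protein, with 45.5 to 60.4 and 47.8 to 68.5 RPKM.

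The genes whose centred log2 profile over the 5 libraries lay closest to that of SLC6A8, by Euclidean distance, were DDIT4 (distance 0.11), PNCK (0.14), FER1L4 (0.15), STRA6 (0.16) and RCN3 (0.17). DDIT4, an inhibitor of mTORC1 signalling induced by stress, was at 15.9, 14.0 and 15.2 RPKM in control and at 26.9 and 28.4 RPKM in knockdown. STRA6, a receptor for retinol-binding protein, was at 2.73, 2.80 and 2.75 RPKM in control and at 5.06 and 5.42 RPKM in knockdown. All 5 thus had tight controls and a knockdown pair well above them, as the choice by likeness to SLC6A8 requires, and no test was made.

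GATM (ENSG00000171766, chromosome 15 from 45361124 to 45402327, minus strand), which catalyses the first step of synthesis, was at 3.67, 2.55 and 4.83 RPKM in control and at 3.25 and 2.94 RPKM in knockdown, from 224, 33, 629, 201 and 297 reads. Both knockdown libraries lay inside the control range. Means were 3.68 ± 1.14 RPKM (SD, n = 3) and 3.10 ± 0.221 RPKM (SD, n = 2). The resulting log2 difference, -0.18 (SE 0.28), missed the threshold (limma adjusted p = 0.87). Leaving out control 2 gave -0.39 and leaving out control 3 gave 0.01, so the direction rested on which control was kept.

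GAMT (ENSG00000130005, chromosome 19 from 1397026 to 1401570, minus strand), the enzyme of the second step, was at 67.9, 56.2 and 53.0 RPKM in control and at 59.3 and 87.2 RPKM in knockdown. Knockdown replicate 3 was above every control and knockdown replicate 1 was among them. The log2 difference was 0.29 (SE 0.23) and did not pass (limma adjusted p = 0.76), with 0.01 when knockdown 3 was left out and 0.57 when knockdown 1 was. GAMT RNA stood far above GATM RNA in every library, 10.98 to 22.0 times in control and 18.2 and 29.7 times in knockdown, a comparison per length of exon.

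CKB (ENSG00000166165, chromosome 14 from 103519659 to 103523111, minus strand), the brain-type cytosolic creatine kinase, was the most abundant member. It was at 238.7, 189.9 and 193.8 RPKM in control and at 269.1 and 324.4 RPKM in knockdown, from 5850, 988, 10139, 6678 and 13160 reads. Both knockdown libraries were above all controls, though control replicate 1 came near knockdown replicate 1. The means were 207.5 ± 27.1 RPKM (SD, n = 3) and 296.8 ± 39.1 RPKM (SD, n = 2), a ratio of 1.43. On the log2 scale this was 0.52 (SE 0.20), short of the threshold (limma adjusted p = 0.71). CKB lay above 98.7% to 99.0% of tested genes in the controls and 99.2% in both knockdown libraries. The pseudogene CKBP1 had at most 1 read in any library.

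CKMT1A (ENSG00000223572, chromosome 15 from 43692886 to 43699222) and CKMT1B (ENSG00000237289, chromosome 15 from 43593054 to 43604901) encode the ubiquitous mitochondrial creatine kinase and are near-identical copies, with 99.7% identity over 1563 aligned transcript bases. Reads could be split between them, so each value is uncertain. CKMT1A was at 0.315, 0.165 and 0.410 RPKM in control and at 0.311 and 0.254 RPKM in knockdown, and CKMT1B at 0.408, 0.148 and 0.412 and at 0.372 and 0.152 RPKM. Together they had 22, 2 and 53 reads in control and 21 and 20 in knockdown, and neither reached the filter of 0.5 RPKM in 3 libraries. The summed RPKM of the pair was 0.723, 0.313 and 0.822 in control and 0.683 and 0.406 in knockdown, so the groups overlapped, and no test was made of it.

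In each of the 5 libraries the order of levels per length was CKB, then GAMT, then SLC6A8, then GATM, then the CKMT1 pair. GAMT and SLC6A8 were neighbours that came together in knockdown, where SLC6A8 reached 0.978 of the GAMT level in replicate 1 and 0.699 in replicate 3, against 0.486 to 0.572 in control. In knockdown replicate 1 their exact 95% Poisson intervals overlapped, with GAMT from 56.1 to 62.5 RPKM and SLC6A8 from 55.9 to 60.1 RPKM. CKMT1A and CKMT1B did not differ beyond their spread. CKB was 6.24 to 7.24 times SLC6A8 in control and 4.64 and 5.32 times in knockdown. The ratios with SLC6A8 carry the difference for which it was chosen, so nothing is read from their shift.

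Of the 6 members, 4 passed the filter and were tested with the other genes of the table. No p-value is given for SLC6A8, as it was chosen on this contrast. limma called 0 of 15408 genes at an adjusted p under 0.05 (0% of genes), with 585 higher and 392 lower genes at an unadjusted p under 0.05. Voom on recovered reads also called 0. SLC6A8 and CKB were the 2 members with both knockdown libraries above all controls, a pattern found for 14.3% of all genes tested, and no tested member lay below all controls, a pattern found for 13.6%. Because that pattern in SLC6A8 prompted the set, nothing is read from the count.

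**Figure D2:**
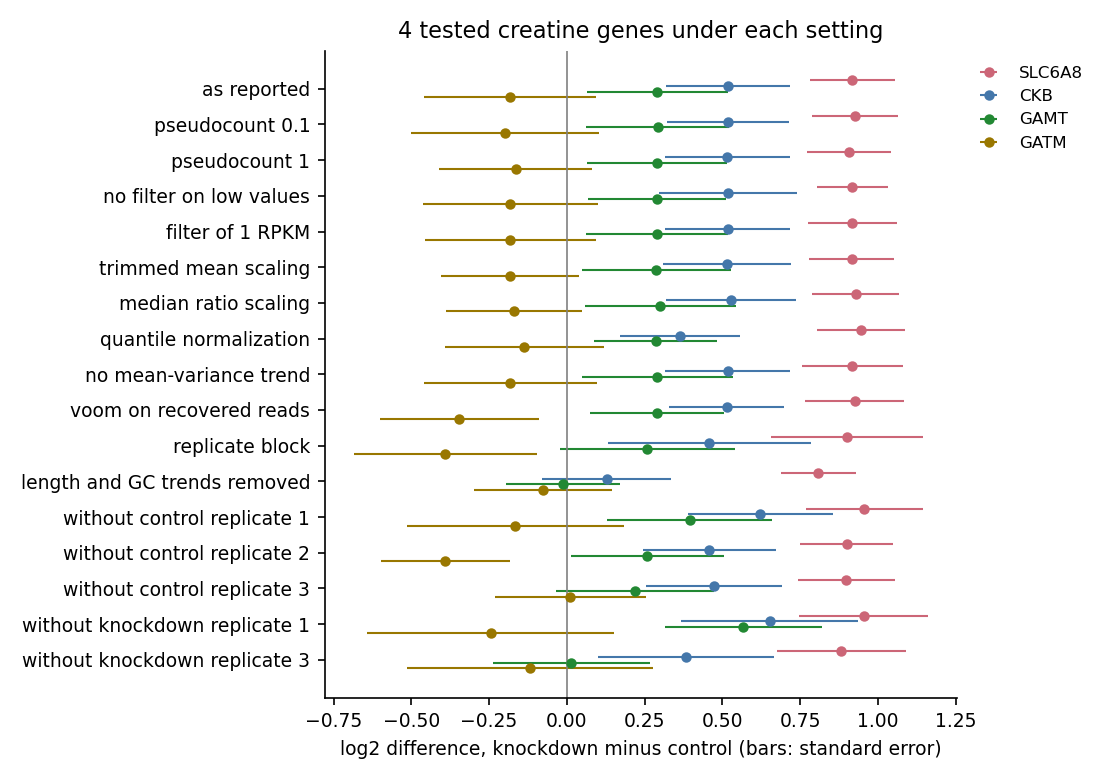
log2 difference of knockdown minus control, with its standard error as a bar, for the 4 tested creatine genes (colours) in the reported fit and under each alternative on the 5 libraries (rows). SLC6A8 stays between 0.81 and 0.96 in every row drawn, but it was chosen on these same values, so nothing is read from that. The fit of all 6 columns as deposited, with SLC6A8 at -1.38, is not drawn. CKB falls to 0.13 when length and GC trends are removed, and GAMT and GATM lie on both sides of 0.

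The differences moved with the GC content of transcripts across the whole table. The median log2 difference was -0.11 for 1644 genes under 40% GC, 0.19 for 1725 genes at 60% to under 65% and 0.32 for 473 genes at 65% or more. GC content was 61.3% for SLC6A8, 61.9% for GAMT, 67.4% for CKB and 46.4% for GATM. In the class of SLC6A8 and GAMT, 30.03% of genes had both knockdown libraries above all controls, and in the class of CKB 31.3%. SLC6A8 was 0.72 above its class median, at rank 57 of 1725, CKB was 0.20 above its own, at rank 130 of 473, and GAMT was 0.10 above. As SLC6A8 was chosen on this contrast, its rank in the class is a description only. After removal of the trends with exon length and GC content in every library, the log2 differences were 0.81 (SE 0.12) for SLC6A8, 0.13 (SE 0.21) for CKB, -0.01 (SE 0.18) for GAMT and -0.08 (SE 0.22) for GATM.

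**Figure D3:**
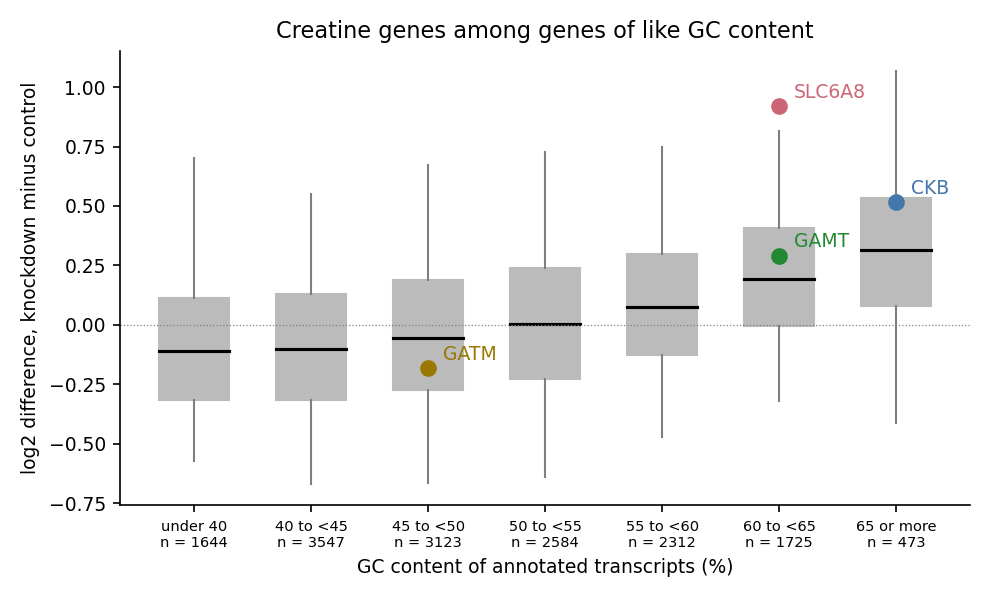
log2 difference of knockdown minus control by class of transcript GC content (percent), with the middle 50% of genes as a box, the median as a line and the 5th to 95th percentiles as whiskers. Medians climb from -0.11 to 0.32 with GC content, and CKB and GAMT lie inside their boxes. SLC6A8, which was chosen on this contrast, lies beyond the upper whisker of its class.

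The promoters of the 2 members with separated groups, and of GATM, whose transcripts have lower GC content, are shown next. The GC trend above is one of transcripts, and a trend with promoter composition was not tested. Each window runs from 250 bases before to 50 bases after a RefSeq start (GRCh38.p14, chrX:153687676-153687975 plus strand for SLC6A8, chr14:103522781-103523080 minus strand for CKB, chr15:45378495-45378794 minus strand for GATM). Capitals mark 3 motifs on either strand, namely TATAAA (called the TATA box), CCAAT (the CCAAT box) and GGGCGG (the GC box).

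SLC6A8 promoter: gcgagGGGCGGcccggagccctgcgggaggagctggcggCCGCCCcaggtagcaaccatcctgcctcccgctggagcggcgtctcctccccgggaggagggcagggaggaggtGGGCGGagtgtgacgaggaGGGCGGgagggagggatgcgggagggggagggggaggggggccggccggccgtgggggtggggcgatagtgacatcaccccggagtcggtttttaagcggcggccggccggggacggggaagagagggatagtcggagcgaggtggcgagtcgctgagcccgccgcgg

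CKB promoter: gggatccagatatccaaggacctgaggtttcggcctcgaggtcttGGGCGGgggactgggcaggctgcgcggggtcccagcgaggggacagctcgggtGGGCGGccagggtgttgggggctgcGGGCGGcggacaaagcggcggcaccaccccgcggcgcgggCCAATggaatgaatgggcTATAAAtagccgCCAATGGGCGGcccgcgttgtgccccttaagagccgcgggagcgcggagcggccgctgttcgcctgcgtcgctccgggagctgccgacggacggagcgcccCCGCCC

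GATM promoter: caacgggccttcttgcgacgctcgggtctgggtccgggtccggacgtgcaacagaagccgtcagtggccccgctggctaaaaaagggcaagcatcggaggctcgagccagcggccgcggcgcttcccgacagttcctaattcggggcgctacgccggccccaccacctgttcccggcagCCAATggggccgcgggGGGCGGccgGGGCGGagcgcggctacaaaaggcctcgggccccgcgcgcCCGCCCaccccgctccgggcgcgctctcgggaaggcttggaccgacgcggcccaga

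The windows were 75.3%, 72.3% and 73.3% G or C, so GATM had a GC-rich promoter beside a transcript of lower GC content. SLC6A8 held 4 GC boxes and neither of the other motifs. CKB held 1 TATA box, 2 CCAAT boxes and 5 GC boxes, and GATM held 1 CCAAT box and 3 GC boxes. Among 35116 RefSeq promoter windows, 44.95% held the GC box letters, 34.6% the CCAAT letters and 11.5% the TATA letters. The table had no entry for GAMT and more than 1 each for CKMT1A and CKMT1B, which were not used.

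Other genes that handle creatine were few. CKMT2, the sarcomeric mitochondrial creatine kinase, was at 1.31, 0.563 and 0.783 RPKM in control and at 0.393 and 0.216 RPKM in knockdown, from 33, 3, 42, 10 and 9 reads. Its knockdown values were below all controls, at a log2 difference of -0.76 (SE 0.32), short of the threshold (limma adjusted p = 0.71). At these levels the pseudocount of 0.5 shrinks the difference, and the ratio of the mean RPKM was 0.344. The median of CKMT2 and SLC16A12 was -0.37, and it was -0.61 at a pseudocount of 0.1 and -0.85 with voom. In the other direction it was -0.25 at a pseudocount of 1. With a filter of 1 RPKM, which CKMT2 did not pass, it was 0.02. Leaving out 1 library at a time gave -0.55 to -0.18. SLC16A12, a carrier that lets creatine leave cells, overlapped between the groups at 5.52 to 8.96 RPKM in control and 5.84 and 7.99 RPKM in knockdown. CKM, the muscle-type kinase, had 0, 0 and 5 reads in control and 1 and 2 in knockdown and was not tested. Among the 7 skeletal muscle markers, a tissue rich in creatine kinases, MYH1, MYH2 and MB were at 0 in all 5 libraries, and the controls' summed level of 3.89 to 5.11 RPKM stood against 6.71 to 9.79 RPKM in knockdown. TNNT1, a troponin, accounted for 2.36 to 4.21 RPKM of the control sums and 6.39 to 9.33 RPKM of the knockdown sums, and ACTA1, skeletal actin, for 2.75 RPKM in control replicate 2. The part of these markers in the CKB values was not tested. Among the 5 brain markers the sums were 2.75 to 4.20 RPKM and 2.98 to 4.04 RPKM, with RBFOX3 and GFAP at or near 0.

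The SLC6 family, the sodium-coupled carriers to which SLC6A8 belongs, had 18 other members, of which 6 were tested, 7 were at 0 in all 5 libraries and none was called. Of the 6, 1 was above 0 and 5 below, with a median log2 difference of -0.19 against 0.00 over all genes tested, a median that moved to -0.38 or -0.01 when knockdown replicate 1 or 3 was left out. SLC6A14, a carrier of neutral and cationic amino acids, was at 7.06, 7.15 and 9.60 RPKM in control and at 4.74 and 4.73 RPKM in knockdown. SLC6A6, the taurine carrier, was at 11.4, 12.6 and 12.7 RPKM in control and at 10.8 and 7.96 RPKM in knockdown. Both lay below all controls, the opposite side from SLC6A8. SLC6A19 and SLC6A9, carriers of neutral amino acids and of glycine, overlapped between the groups.

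**Figure D4:**
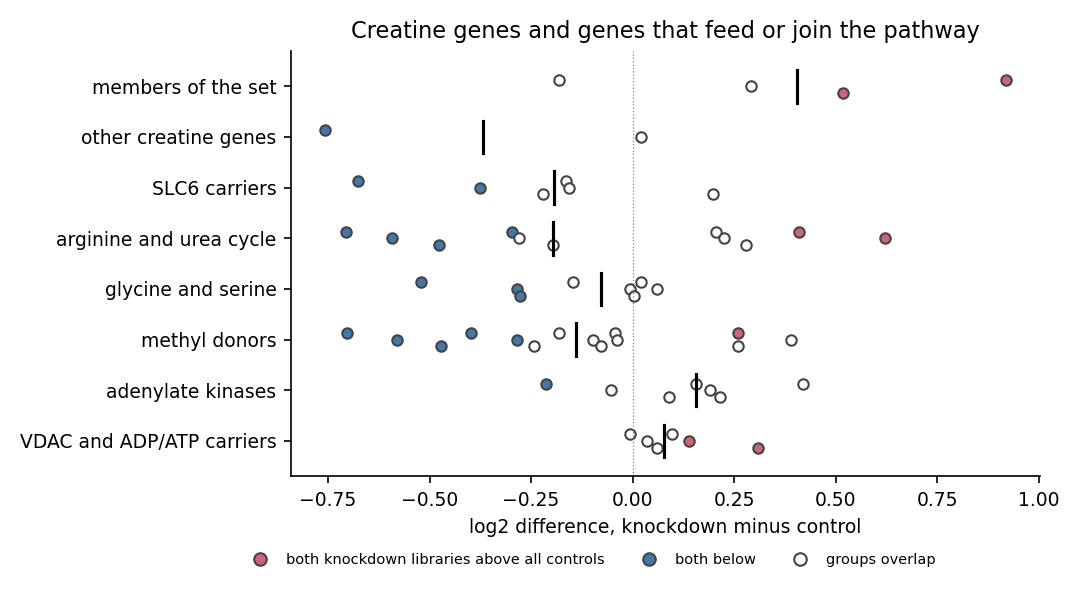
log2 difference of knockdown minus control for each tested gene of the creatine set and the pathway lists, in rows by list, with filled points where both knockdown libraries lie above (red) or below (blue) all controls and a black line at the list's median. Marker lists are not drawn, and among the creatine and pathway genes drawn SLC6A8, at 0.92, is the highest point. SLC6A8 was chosen on this contrast, so nothing is read from its place. The SLC6 row has 2 blue points and no red one among 6, against 13.6% and 14.3% of all genes tested.

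Genes of arginine and the urea cycle, which supply GATM and take up its ornithine, were tested for 11 of 13, with 5 above 0, 6 below and 0 called. Their median was -0.20, moving to -0.05 without control 3, to -0.06 without knockdown 3 and to -0.11 without knockdown 1. It moved the other way to -0.26 without control 2 and to -0.23 without control 1. ASS1, which makes argininosuccinate on the way to arginine, was at 31.8, 26.1 and 33.1 RPKM in control and at 43.6 and 49.9 RPKM in knockdown, above all controls, a log2 difference of 0.62 (SE 0.17). ODC1, which turns ornithine into putrescine, was at 78.3, 59.1 and 70.3 RPKM in control and at 44.98 and 45.9 RPKM in knockdown, below all controls, a difference of -0.59 (SE 0.17). OAT, the mitochondrial enzyme that degrades ornithine, was also below them, at 20.9 to 29.5 RPKM in control and 20.1 RPKM in both knockdown libraries, and the cationic amino acid carrier SLC7A2 overlapped. The list thus held 2 genes above and 4 below all controls of 11, where 14.3% and 13.6% of all genes tested were so placed. For OAT the margin was narrow, and its lowest control, replicate 2, rested on 138 reads. Across classes of GC content the shares ran from 4.68% to 31.3% above and from 1.90% to 18.9% below.

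Glycine and serine genes were tested for 8 of 11, with 3 above 0, 5 below, 0 called and a median of -0.08, or between -0.18 (control 2 left out) and -0.025 (control 3 left out). PSAT1, a transaminase of serine synthesis, was at 93.3, 95.9 and 103.6 RPKM in control and at 69.4 and 66.3 RPKM in knockdown, below all controls. SHMT2, the mitochondrial enzyme that makes glycine from serine, was at 76.5 to 86.3 RPKM in control and at 81.8 and 81.4 RPKM in knockdown, inside the control range. PHGDH and PSPH, the other enzymes of serine synthesis, overlapped as well. Of the 8 tested, 0 lay above all controls and 3 below, against 14.3% and 13.6% of all genes tested.

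Methyl donor genes, which provide the S-adenosylmethionine that GAMT uses, were tested for 14 of 16, with 3 above 0, 11 below, 0 called and a median of -0.14, or between -0.22 (control 2 left out) and -0.06 (control 3 left out). MAT2A, which makes S-adenosylmethionine outside the adult liver, was at 49.1, 55.7 and 51.9 RPKM in control and at 40.1 and 30.1 RPKM in knockdown, below all controls, a log2 difference of -0.58 (SE 0.18). AHCY, which clears the S-adenosylhomocysteine left by methylation, overlapped at 147.7 to 162.0 RPKM in control and 144.1 and 157.9 RPKM in knockdown. AHCYL1, a relative of AHCY, was at 33.1 to 35.3 RPKM in control and at 32.9 and 24.1 RPKM in knockdown. BHMT2, a homocysteine methyltransferase, overlapped. Of the 14 tested, 1 lay above all controls and 5 below, against 14.3% and 13.6% of all genes tested.

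Other enzymes and carriers take part with creatine kinase in the exchange of ATP. Adenylate kinases, which balance ATP, ADP and AMP, were tested for 7 of 9, with 5 above 0, 2 below, 0 called and a median of 0.15. That median ranged from 0.06 without control 1 to 0.29 without control 3. AK4 and AK6 overlapped between the groups, and AK3, which uses GTP in mitochondria, was at 8.67 to 11.8 RPKM in control and at 8.25 and 8.44 RPKM in knockdown. Of the 7 adenylate kinases tested, 0 lay above all controls and 1 below, against 14.3% and 13.6% of all genes tested. The mitochondrial pores and ADP/ATP carriers that work with mitochondrial creatine kinase were all tested, with 5 of 6 above 0, 0 called and a median of 0.08, which ranged from -0.0046 without knockdown 3 to 0.16 without knockdown 1. The carriers SLC25A5 and SLC25A6 overlapped, at 225.3 RPKM or more in every library. VDAC1, an outer membrane pore, was at 116.2, 94.1 and 117.1 RPKM in control and at 121.4 and 117.8 RPKM in knockdown, narrowly above all controls, and VDAC3 overlapped. Of these 6 pores and carriers, 2 lay above all controls and 0 below, against 14.3% and 13.6% of all genes tested.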

How the data were processed

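The authors deposited 1 table of RPKM values for 6 libraries, per the file name and the labels. HISAT2 and GRCh38 are named in the submitters' processing notes, but no source used here gives the counter, its annotation or its use of strand. The 58676 gene IDs all matched GENCODE release 29 (GRCh38). In the 5 libraries used, 100% of values above 0, multiplied by exon length, came out as whole reads (tolerance 0.002 of a read), and these are the reads given. Voom on them called 0 genes. The members and lists were chosen with earlier results of these data known. Genes reaching 0.5 RPKM in 3 or more of the libraries were fitted with limma 3.58.1 (R 4.3.3) on log2(RPKM + 0.5), two-sided, with a mean-variance trend and Benjamini-Hochberg adjustment over all genes tested, at a threshold of 0.05. The code was tested on simulated data. Named genes were the members, the up to 4 most abundant tested genes of each list, the nearest expressed coding genes on each side and the 5 closest profiles to SLC6A8. A gene that this rule names is not reported here. CKM and the markers at 0 were named after their values were seen. Transcripts were aligned with blastn 2.17.0. Immune, fibroblast and endothelial markers were also listed. Their summed levels were 32.7 to 41.9, 63.1 to 83.1 and 0.523 to 0.760 RPKM in control and 36.8 to 42.9, 68.0 to 72.0 and 0.388 to 0.406 RPKM in knockdown. CD14 made up most of the immune sums (28.6 to 38.4 RPKM in control) and LUM most of the fibroblast sums (54.2 to 68.3 RPKM in control). PTPRC, CD68 and DCN were at or near 0. Of the tested markers, CD3D, COL1A1 and COL1A2 lay above all controls and PDGFRA and PECAM1 below them, none called. The sums do not show whether such cells were present.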

Additional observations from a re-analysis of the deposited data

Results flagged for a closer look

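In the column of knockdown replicate 2, which was not used because its values do not follow the gene IDs, the row of CKMT1A is listed at 10.5 RPKM, above the 0.165 to 0.410 RPKM of the controls, and the rows of the other 5 members are listed at 0. The value was flagged because it lies in data outside the comparison, and the gene it belongs to is not known.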

How the results depend on the processing

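With all 6 columns as deposited, where 5 of the 6 members are listed at 0 in knockdown replicate 2, the log2 differences were -1.38 for SLC6A8, -2.10 for GAMT and -2.55 for CKB, all reversed, and limma called 0 genes. With length and GC trends removed, SLC6A8 was at 0.81 and GAMT reversed to -0.012. Leaving out 1 library at a time gave 0.88 to 0.96 for SLC6A8. As SLC6A8 was chosen on these values, nothing is read from that range. The same step gave 0.38 to 0.65 for CKB, 0.01 to 0.57 for GAMT and -0.39 to 0.011 for GATM, which reversed without control replicate 3. Where 1 knockdown library is left, it is assumed to vary like the controls. The replicate number as a block called 40 genes at 1 residual degree of freedom. CKB was at 0.46, GAMT at 0.26 and GATM at -0.39, none of these 3 called. SLC6A8 was at 0.90, and no call is given for it, as it was chosen on this contrast. Control replicate 2 had no partner in this fit, so these differences equal those with it left out. The replicate numbers gave no sign of pairing, since deviations of same-numbered libraries correlated at -0.17 for number 1 and 0.02 for number 3. Voom put GATM at -0.35. Other pseudocounts, filters and scalings kept every tested member's direction and called 0 genes. Depth limits CKMT1A and CKMT1B, with 1 read each in control replicate 2.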

Other observations

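The nearest expressed coding genes beside the other members mostly overlapped between the groups. On either side of GATM, SHF was at 1.26 to 1.87 RPKM in the controls and 2.59 to 2.76 RPKM in the knockdown pair, above every control, and SPATA5L1 overlapped. NDUFS7, a subunit of respiratory complex I, and DAZAP1, an RNA-binding protein, lie beside GAMT and overlapped. Beside CKB, MARK3, a protein kinase, was at 5.69 to 6.42 RPKM in the controls and 5.48 to 5.65 RPKM in the knockdown pair, and TRMT61A, a tRNA methyltransferase subunit, overlapped. Around the CKMT1 pair, PPIP5K1, an inositol phosphate kinase, was at 1.97 to 2.62 RPKM in the controls and 1.42 to 1.86 RPKM in the knockdown pair, and PDIA3, a protein disulfide isomerase, overlapped.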
